A study of Mus musculus with 35 samples.

Results

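A set of 10 immediate early genes was followed through the livers of mice with and without a chemical carcinogen and an antisense treatment. The 10 genes were listed by symbol (Fos, Fosb, Jun, Junb, Jund, Egr1, Ier2, Ier3, Atf3 and Klf6) and were all found, by Ensembl identifier in GENCODE M21, among the 55413 genes of the count table. Liver RNA was measured in 21 mice with a 3' sequencing kit that reads the ends of polyadenylated transcripts. The study asked what an antisense oligonucleotide against Smyd3, the gene of a lysine methyltransferase, does in carcinogen-treated livers.

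The Smyd3-ASO group held 6 C57Bl6 mice that had received the liver carcinogen DEN, diethylnitrosamine, on day 14 after birth, as 25 mg/kg into the peritoneum. From day 133 these mice received the Smyd3 oligonucleotide at 50 mg/kg by the same route, 2 injections a week, and their livers were taken on day 260. The control-ASO group held 6 mice with the same DEN dose and a control oligonucleotide on the same schedule, also taken on day 260. The P133 group held 4 DEN mice with no oligonucleotide, taken on day 133. The untreated group held 5 mice with neither DEN nor oligonucleotide, taken on day 260. All DEN samples carry a tumour label and the untreated samples are labelled normal liver. The protocol homogenized liver pieces and describes no separation by cell type, so an RNA difference can come from fewer cells of a type or from less RNA per cell, which cannot be told apart here. DEN and the oligonucleotide injections both separate the ASO groups from untreated mice. Age and injections both separate the ASO groups from P133 mice. DEN and age at harvest, day 133 against day 260, both separate P133 from untreated mice. Within each of these comparisons the factors cannot be told apart. The hour of harvest and the handling before it are not given in the sources used here.

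Immediate early genes are transcribed within minutes of a growth factor, cytokine or stress signal, with no new protein synthesis needed. Ras-MAPK kinases and other pathways switch them on through factors already bound to DNA, such as SRF with Elk1, and CREB. The Fos and Jun proteins pair through leucine zippers to form AP-1, a dimer that binds enhancers of genes for proliferation and matrix remodelling. In liver these genes rise sharply after partial hepatectomy, and Jun is known to be needed for the early growth of chemically induced liver tumours in mice. Egr1 and Klf6 are zinc finger factors, and Atf3 is a leucine zipper factor of the ATF/CREB family induced by cell stress. Ier2 and Ier3 encode small proteins without a classical DNA binding domain, so that the 10 genes share their fast induction rather than a single protein type.

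Total counts per mouse ran from 6358080 to 20258619 in Smyd3-ASO, 6789715 to 13805881 in control-ASO, 4556484 to 6447397 in P133 and 10186780 to 13116012 in untreated mice. Smyd3 itself, the check of the antisense treatment, averaged 0.325 ± 0.289 CPM (read counts scaled to a common depth) in Smyd3-ASO livers and 3.87 ± 0.598 CPM in control-ASO livers (SD, n = 6 each), with no overlap (log2 change -3.65, SE 0.47, adjusted p = 1.475e-04). The 6 hepatocyte markers were present in every mouse, at a summed level of 17580 to 36080 CPM in Smyd3-ASO, 48470 to 68670 in control-ASO, 38390 to 41150 in P133 and 50000 to 102400 in untreated mice. Levels here are CPM after TMM scaling over the 21 mice. A gene is said to have risen or fallen where the adjusted p of edgeR's quasi-likelihood test, over 15297 genes, was under 0.05. Of the 10 genes, 9 passed the filter on low counts. Fosb did not and was not tested. Fos, Ier3 and Atf3 had few reads in untreated or P133 mice and passed through the ASO groups.

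Compared with untreated livers, most of the immediate early genes were higher in DEN livers at day 260 under either oligonucleotide. In control-ASO over untreated mice, 8 of the 9 tested genes rose and none fell, where 23.7% of all tested genes rose and 22.2% fell. In Smyd3-ASO over untreated mice, 7 of the 9 rose and none fell, against 24.4% and 23.2% of all tested genes. Fos, Ier3 and Atf3 are in both counts. They passed the filter on low counts through the ASO groups, where they are high, so the counts are not independent of that filter. Over all genes 15.1% rose and 16.6% fell in P133 over untreated livers, which differ in both DEN and age. At day 133, before any oligonucleotide, 3 of the 9 (Fos, Jun and Klf6) rose over untreated livers and Jund fell. Of these, the calls of Fos, Jun and Jund were each lost under some alternatives, given with the genes. The median log2 change of the 9 genes was 2.58 in control-ASO, 2.30 in Smyd3-ASO and 0.50 in P133 mice over untreated mice, beside 0.06, 0.06 and 0.00 for all genes. The 3 comparisons share the same 5 untreated mice. When counts were scaled to library totals alone, the median of all genes moved to 0.90, 0.96 and 0.59 in these comparisons. All genes then split into 65.5% rising and 4.51% falling in control-ASO, 62.2% and 5.87% in Smyd3-ASO, and 42.3% and 5.38% in P133 mice.

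**Figure D1:**
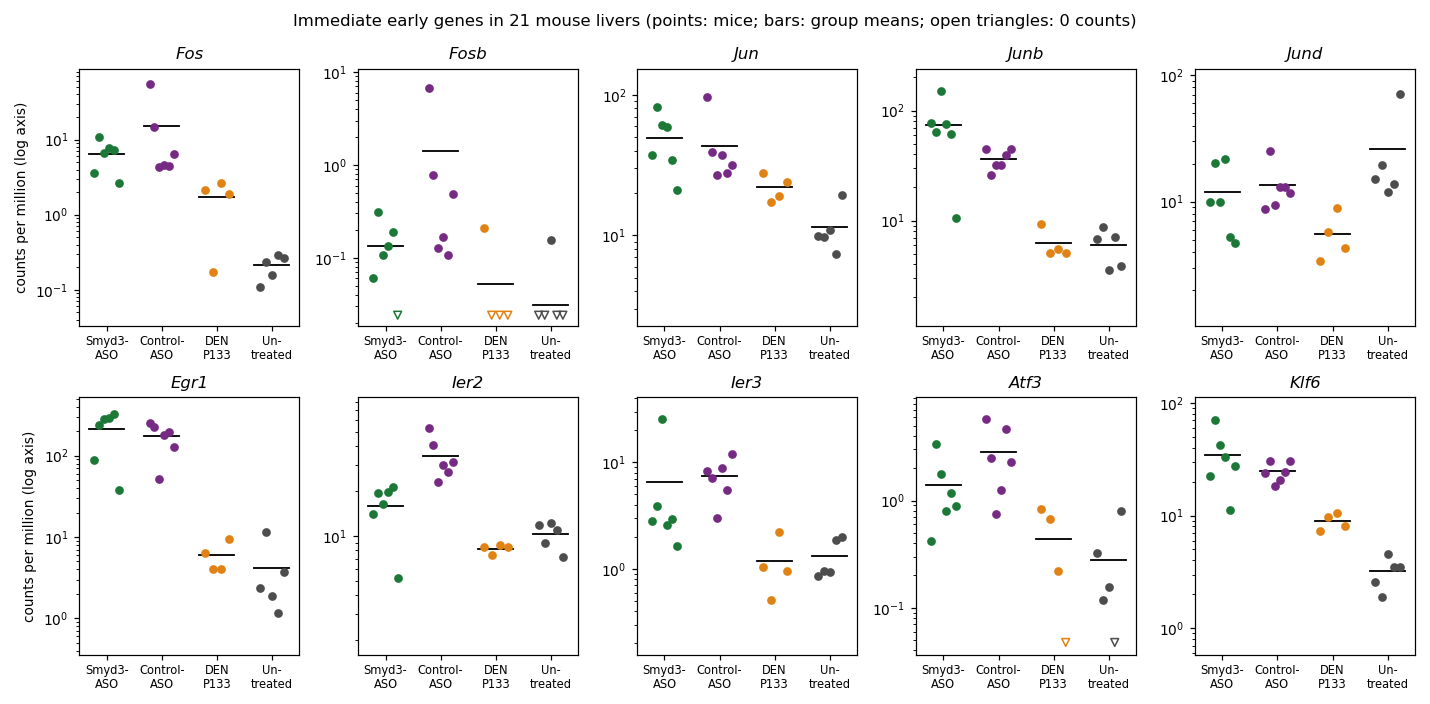
Level of each of the 10 genes in each of 21 livers, in CPM on a log axis, by group. Points are mice, bars are group means and open triangles are mice with 0 counts. Egr1 reached 37.7 CPM or more in every ASO-treated mouse and at most 11.6 CPM in every other mouse.

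Fos, the partner that AP-1 needs for its strongest DNA binding, was close to the detection limit in untreated livers. Fos ranged from 2.65 to 10.7 CPM in Smyd3-ASO mice (median 6.98) and from 4.28 to 55.4 CPM in control-ASO mice (median 5.56). The 4 P133 mice had 2.105, 0.170, 2.66 and 1.90 CPM, and the 5 untreated mice had 0.107, 0.237, 0.156, 0.290 and 0.268 CPM. Each untreated mouse gave 1 or 2 Fos reads, 8 in all, so the size of the changes over that group rests on few reads. Every ASO-treated mouse lay above every untreated mouse. Fos rose over untreated by log2 6.11 (SE 1.2, adjusted p = 0.0024) in control-ASO, by 4.88 (SE 0.47, adjusted p = 4.339e-06) in Smyd3-ASO and by 2.90 (SE 0.67, adjusted p = 0.00427) in P133 livers. Without control-ASO mouse 1, the mouse at 55.4 CPM, the control-ASO change was 4.98 (adjusted p = 4.319e-06). limma voom gave the control-ASO change an adjusted p of 0.072, which misses the threshold, as does the P133 change in the fit of all 4 groups (2.93, adjusted p = 0.0845).

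Fosb, a close paralog of Fos that marks strong or sustained stimulation, was nearly silent outside a single liver. It had 0 to 8 reads a mouse in Smyd3-ASO livers. In control-ASO livers it had 100 reads in mouse 1 and 1 to 11 reads in the others. It had 1 read in the P133 group and 1 read in the untreated group. The control-ASO to untreated ratio of summed reads per scaled total was 66.3 (exact 95% counting interval 11.7 to 2641), and 14.5 (2.34 to 601.7) without control-ASO mouse 1. The Smyd3-ASO to untreated ratio was 6.10 (0.956 to 255). These intervals cover counting error only.

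The Jun family provides the other partner of AP-1, and its 3 members behaved differently. Jun, the strongest transactivator among them, ranged from 21.1 to 81.4 CPM in Smyd3-ASO mice (median 48.3) and from 27.1 to 96.1 CPM in control-ASO mice (median 34.7). It stood at 27.8, 17.3, 19.1 and 24.0 CPM in P133 mice and at 9.88, 9.72, 10.9, 7.40 and 19.4 CPM in untreated mice. All ASO-treated mice lay above all untreated mice. Smyd3-ASO mouse 6, control-ASO mouse 3 and untreated mouse 5 lay inside the P133 range. Over untreated livers Jun rose by log2 2.07 (SE 0.35) in Smyd3-ASO, 1.92 (SE 0.39) in control-ASO and 0.95 (SE 0.25) in P133 mice, with adjusted p of 4.147e-04, 0.0021 and 0.00972. In the fit of all 4 groups the P133 change of Jun missed the threshold (0.94, adjusted p = 0.0848).

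Junb, which is often induced together with Jun and can oppose its effect on growth, was flat at day 133. Junb ranged from 10.5 to 150.5 CPM in Smyd3-ASO mice (median 70.0) and from 25.8 to 44.3 CPM in control-ASO mice (median 35.8). The P133 mice had 9.26, 5.09, 5.54 and 5.06 CPM and the untreated mice 6.77, 8.77, 3.58, 7.11 and 3.88 CPM. Every ASO-treated mouse lay above all 9 others, and the P133 and untreated mice overlapped. Junb rose by log2 3.58 (SE 0.56, adjusted p = 3.816e-04) in Smyd3-ASO and by 2.58 (SE 0.24, adjusted p = 1.909e-06) in control-ASO livers over untreated, and its P133 change was 0.04 (SE 0.29, adjusted p = 0.94). The gene overlaps Prdx2, an antioxidant enzyme gene, on the opposite strand. Because the strand setting of the counting is not given in the sources used here, reads could be shared between them. Prdx2 averaged 88.9, 53.6, 97.6 and 63.1 CPM in Smyd3-ASO, control-ASO, P133 and untreated livers, and over untreated livers it rose by 0.47 (adjusted p = 0.00913) in Smyd3-ASO and by 0.63 (adjusted p = 0.00149) in P133 mice. Its control-ASO change was -0.24 (adjusted p = 0.144).

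Jund, the Jun protein that is present in resting cells and is held in check by menin, did not follow the others. It ranged from 4.68 to 21.7 CPM in Smyd3-ASO mice (median 9.94) and from 8.79 to 25.2 CPM in control-ASO mice (median 12.3). It stood at 3.37, 5.77, 8.87 and 4.27 CPM in P133 mice and at 15.0, 19.3, 12.0, 13.8 and 70.6 CPM in untreated mice. All 4 P133 mice lay below all 5 untreated mice, and untreated mouse 5 stood far above the other untreated mice. Jund fell by log2 2.23 in P133 mice (SE 0.70, adjusted p = 0.0447), a call that holds on the margin. It was lost when any of 6 mice was left out (each P133 mouse, and untreated mice 1 and 2, adjusted p between 0.0513 and 0.111). It was also lost with library totals (adjusted p = 0.0799), no filter (0.0699), limma voom (0.0785) and thinning to the lowest total (0.0637). Without untreated mouse 5 the change was -1.44 (adjusted p = 5.863e-04). In the ASO groups Jund gave -1.14 (Smyd3-ASO, adjusted p = 0.116) and -0.95 (control-ASO, adjusted p = 0.152) over untreated, neither past the threshold, and -0.34 and -0.15 without untreated mouse 5.

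Egr1, a zinc finger factor switched on through serum response elements, was far higher in both ASO groups than in the other groups. The gene lies on chromosome 18 (34859823 to 34864984, plus strand, mm10). Egr1 ranged from 37.7 to 324.8 CPM in Smyd3-ASO mice (median 259) and from 52.3 to 255.7 CPM in control-ASO mice (median 185.6). The P133 mice had 6.31, 4.07, 3.99 and 9.32 CPM and the untreated mice 2.36, 11.6, 1.87, 1.16 and 3.75 CPM. The ASO groups did not overlap with either other group, while P133 and untreated mice overlapped. Over untreated livers the log2 change was 5.62 (SE 0.80, adjusted p = 2.427e-04) in Smyd3-ASO and 5.35 (SE 0.68, adjusted p = 1.499e-04) in control-ASO mice. At P133 it was 0.50 (SE 0.64, adjusted p = 0.589). Untreated mouse 2, at 11.6 CPM, weighed on all of these. Without it the changes were 6.49 in Smyd3-ASO, 6.22 in control-ASO and 1.37 in P133 mice, the last with an adjusted p of 0.0153.

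Ier2, a small nuclear protein that acts as a transcriptional co-regulator, averaged higher in both ASO groups than in untreated livers and passed the test in control-ASO livers. The gene spans 84661331 to 84662852 on chromosome 8 (minus strand, mm10). Ier2 had 5.18 to 21.2 CPM in Smyd3-ASO mice and 23.0 to 53.2 CPM in control-ASO mice. The P133 mice had 8.42, 7.46, 8.65 and 8.37 CPM, and the untreated mice 11.9, 9.01, 12.2, 11.03 and 7.22 CPM. The control-ASO mice all lay above every mouse of the other 3 groups. Ier2 rose by log2 1.74 (SE 0.22, adjusted p = 2.626e-05) in control-ASO over untreated livers and its Smyd3-ASO change was 0.62 (SE 0.29, adjusted p = 0.0877). Without Smyd3-ASO mouse 6, the lowest, that change was 0.80 (adjusted p = 0.00267). The P133 change was -0.32 (adjusted p = 0.225) and turned to 0.27 when counts were scaled to library totals alone.

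Ier3, a stress-inducible protein that affects cell survival and ERK signalling, ranged from 1.64 to 25.4 CPM in Smyd3-ASO mice (median 2.88) and from 3.02 to 12.1 CPM in control-ASO mice (median 7.73). The P133 mice had 1.05, 0.509, 2.22 and 0.948 CPM and the untreated mice 0.859, 0.948, 0.935, 1.89 and 2.01 CPM. Smyd3-ASO mouse 3 at 25.4 CPM stood apart from the other 5, which reached at most 3.92 CPM. Ier3 rose over untreated by log2 2.51 (SE 0.36, adjusted p = 6.731e-05) in control-ASO and by 2.30 (SE 0.80, adjusted p = 0.0327) in Smyd3-ASO livers. Without Smyd3-ASO mouse 3 the Smyd3-ASO change was 1.07 (adjusted p = 0.0177), and it missed the threshold without untreated mouse 1, 2 or 3 (adjusted p = 0.0722, 0.0722 and 0.0677). The call was also lost under limma voom (adjusted p = 0.142), with no filter (0.0802) and after thinning to the lowest total (0.0887). The P133 change was -0.19 (adjusted p = 0.797), and 0.40 when scaled to library totals alone.

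Atf3, which stress signals induce and which can repress or activate with other leucine zipper proteins, was a low gene throughout. It ranged from 0.421 to 3.34 CPM in Smyd3-ASO mice (median 1.04) and from 0.755 to 5.73 CPM in control-ASO mice (median 2.37). It gave 0 to 4 reads in a P133 mouse and 0 to 6 in an untreated mouse. Untreated mouse 5 (0.802 CPM) overlapped both ASO groups. Atf3 rose over untreated by log2 3.28 (SE 0.68, adjusted p = 0.00146) in control-ASO and by 2.27 (SE 0.70, adjusted p = 0.0157) in Smyd3-ASO livers, and its P133 change was 0.56 (SE 0.93, adjusted p = 0.682). Without untreated mouse 5 the 3 changes were 4.08, 3.08 and 1.33.

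Klf6, a Krüppel-like zinc finger factor known in hepatocytes and in activated stellate cells, rose in all 3 DEN groups. Klf6 ranged from 11.2 to 69.6 CPM in Smyd3-ASO mice (median 30.04) and from 18.3 to 30.4 CPM in control-ASO mice (median 24.0). The P133 mice had 7.37, 9.67, 10.4 and 8.06 CPM and the untreated mice 2.58, 1.90, 4.52, 3.48 and 3.48 CPM. No untreated mouse overlapped with any DEN mouse, and no P133 mouse with any ASO-treated mouse. Klf6 rose over untreated by log2 3.41 (SE 0.44, adjusted p = 7.618e-05) in Smyd3-ASO, 2.96 (SE 0.21, adjusted p = 2.811e-07) in control-ASO and 1.49 (SE 0.25, adjusted p = 4.141e-04) in P133 livers.

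**Figure D2:**
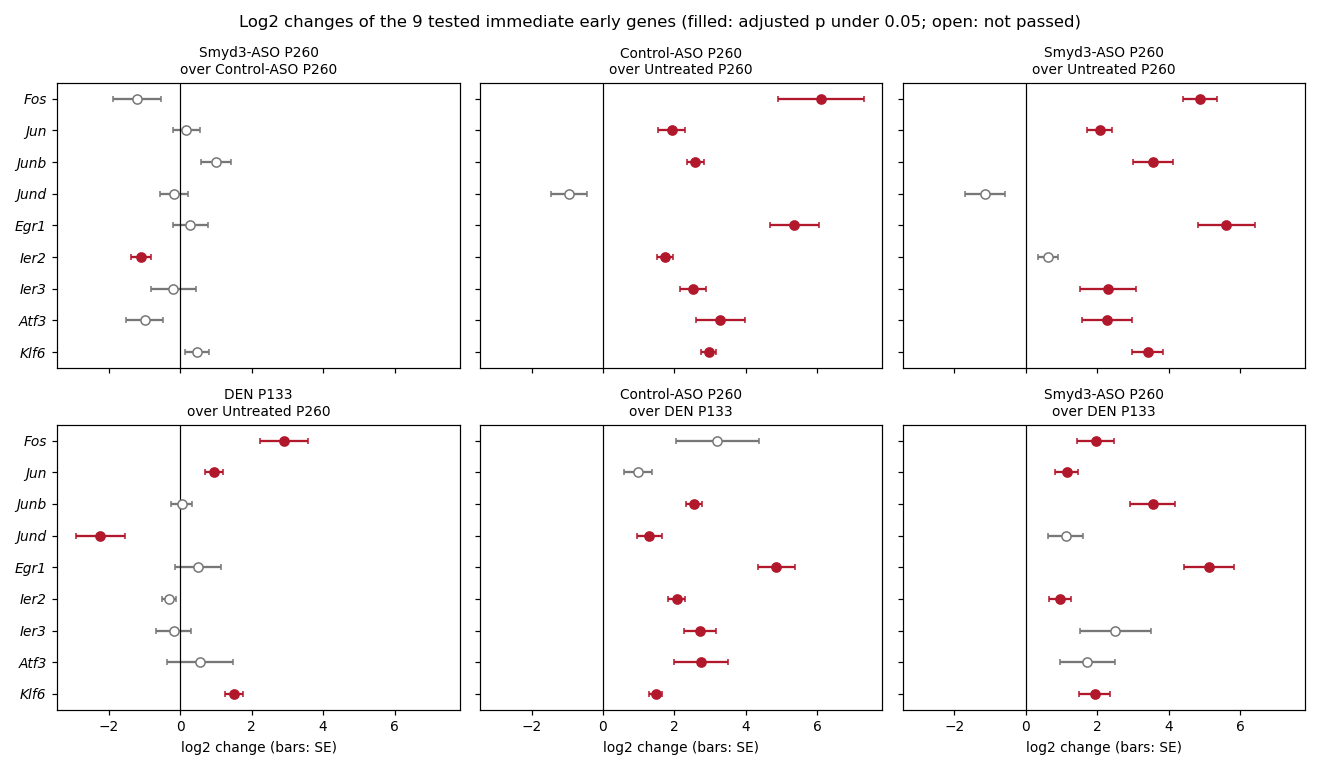
Log2 changes of the 9 tested genes in the 6 comparisons, with their standard errors. Filled points passed an adjusted p of 0.05 and open points did not. Over untreated livers Jund lies left of 0 in all 3 comparisons, at -1.14, -0.95 and -2.23, while Fos lies between 2.90 and 6.11.

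The promoters of Fos, Jun, Junb and Klf6 are shown because these genes rose in both ASO groups and their start regions differ in the short motifs they hold. Windows of 250 bases before to 50 bases after the RefSeq start (GRCm38.p6) were searched for 8 of the 10 genes. Egr1 and Ier2 are named only. The windows of Jund and Atf3 start 1210 and 34706 bases from the GENCODE gene start and were searched but are not shown. Capitals mark TGACG, the core of the cyclic AMP response element that CREB and ATF proteins bind, or TGACATCA, a Jun-responsive variant of the AP-1 element. Each line reads 5' to 3' on the gene's own strand.
Fos, plus strand, chr12:85473640-85473939: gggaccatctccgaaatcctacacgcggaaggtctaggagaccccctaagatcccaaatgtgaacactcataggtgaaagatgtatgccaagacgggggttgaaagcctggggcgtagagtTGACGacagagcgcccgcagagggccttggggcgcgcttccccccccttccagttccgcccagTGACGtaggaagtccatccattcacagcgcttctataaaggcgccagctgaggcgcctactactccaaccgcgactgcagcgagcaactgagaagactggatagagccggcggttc
Jun, minus strand, chr4:95052173-95052472: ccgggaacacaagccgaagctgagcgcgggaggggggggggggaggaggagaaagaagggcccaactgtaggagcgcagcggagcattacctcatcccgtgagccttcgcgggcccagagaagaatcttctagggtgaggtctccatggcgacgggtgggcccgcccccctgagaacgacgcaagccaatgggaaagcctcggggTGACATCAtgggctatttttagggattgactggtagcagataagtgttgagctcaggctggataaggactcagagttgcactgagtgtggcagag
Junb, minus strand, chr8:84978699-84978998: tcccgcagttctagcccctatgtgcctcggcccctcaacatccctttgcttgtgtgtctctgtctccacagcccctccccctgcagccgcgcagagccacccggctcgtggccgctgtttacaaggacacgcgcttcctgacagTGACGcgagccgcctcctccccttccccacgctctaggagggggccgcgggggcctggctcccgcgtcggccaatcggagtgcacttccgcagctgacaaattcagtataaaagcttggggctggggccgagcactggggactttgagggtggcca
Klf6, plus strand, chr13:5861239-5861538: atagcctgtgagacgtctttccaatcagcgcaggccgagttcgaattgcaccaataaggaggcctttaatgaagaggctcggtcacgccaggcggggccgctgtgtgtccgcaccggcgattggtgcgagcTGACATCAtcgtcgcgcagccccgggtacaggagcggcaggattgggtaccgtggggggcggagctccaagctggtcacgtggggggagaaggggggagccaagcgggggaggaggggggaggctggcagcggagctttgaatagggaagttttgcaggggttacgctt

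On either strand, Fos held TGACG at -129 and -66 from its start, Junb at -106, Fosb at -60 and Atf3 at -7, and 20.8% of 32851 RefSeq windows of this length hold it. TGACATCA stood at -45 in Jun and at -119 in Klf6 and is present in 3.62% of windows. Fosb alone of the 8 held the EGR site GCGNGGGCG, at -50, which 5.55% of windows contain. The Ier3 and Jund windows held none of these motifs. Ier3 also rose in both ASO groups, and its window is not shown. The AP-1 site TGANTCA (7.81% of windows) and the CArG box of SRF (1.63%) were in none of the 8 windows. Sites farther upstream lie outside these windows, and Egr1 and Ier2 were not searched. The Jund and Atf3 windows also lie away from the GENCODE gene start. Whether the genes hold either site elsewhere was therefore not tested, and no conclusion on AP-1 or SRF is drawn from this absence. A match is a description of these letters and was not tested as a binding site.

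Between day 133 and day 260, DEN livers gained in most of these genes under either oligonucleotide. In control-ASO over P133 mice, 7 of the 9 rose and none fell, where 14.4% of all genes rose and 12.6% fell. In Smyd3-ASO over P133 mice, 6 of the 9 rose and none fell, against 13.1% and 11.7% of all genes. Among those that rose were Ier3 and Atf3 in control-ASO and Fos in Smyd3-ASO mice. These genes passed the filter on low counts through the ASO groups. Scaled to library totals alone, the shares over all genes were 25.1% rising and 6.44% falling in control-ASO, and 22% and 4.82% in Smyd3-ASO mice, with medians of 0.28 and 0.34. Among the 9 members the largest change in each was that of Egr1, at log2 5.13 (SE 0.69, adjusted p = 0.0011) in Smyd3-ASO and 4.85 (SE 0.52, adjusted p = 2.151e-04) in control-ASO mice. Junb rose by 3.55 (SE 0.62, adjusted p = 0.00363) in Smyd3-ASO and by 2.55 (SE 0.22, adjusted p = 5.267e-06) in control-ASO mice. Klf6 rose by 1.94 (adjusted p = 0.00926) in Smyd3-ASO and 1.47 (adjusted p = 7.193e-05) in control-ASO mice.

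Several members passed against P133 under one oligonucleotide and missed the threshold under the other. Jund (log2 1.3, adjusted p = 0.0152), Ier3 (2.72, adjusted p = 6.92e-04) and Atf3 (2.73, adjusted p = 0.0176) rose in control-ASO mice. In Smyd3-ASO mice the same genes gave 1.12 (adjusted p = 0.113), 2.51 (adjusted p = 0.0856) and 1.72 (adjusted p = 0.118). Fos and Jun rose in Smyd3-ASO mice by 1.96 (adjusted p = 0.0194) and 1.14 (adjusted p = 0.0262). In control-ASO mice they gave the values 3.20 (adjusted p = 0.0741) and 0.98 (adjusted p = 0.0879). None of these genes passed the test of Smyd3-ASO over control-ASO mice, which is the test of the difference.

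Several of the P133 comparisons turned on single mice or on the method. Without control-ASO mouse 1, Fos and Jun passed in control-ASO over P133 livers (log2 2.07 and 0.57, adjusted p = 0.024 and 0.0215). Jund missed the threshold there without P133 mouse 4 (adjusted p = 0.0541) and Atf3 without P133 mouse 3 (adjusted p = 0.0537). Ier2 rose in Smyd3-ASO over P133 livers (log2 0.96, adjusted p = 0.0397), and passed only without Smyd3-ASO mouse 6 when each of the 10 mice was left out in turn (1.14, adjusted p = 8.102e-04). In the other 9 cases its adjusted p ran up to 0.101. Jun in Smyd3-ASO over P133 livers missed the threshold without P133 mouse 2, 3 or 4 (adjusted p = 0.0772, 0.0726 and 0.0588) and Fos without P133 mouse 4 (adjusted p = 0.0505). Without P133 mouse 4, 3 members passed in that comparison. Ier3 passed without Smyd3-ASO mouse 3 (1.28, adjusted p = 0.0392). With all mice, DESeq2 called Fos and Jun in control-ASO over P133 livers (adjusted p = 0.00475 and 0.0184). Jund was lost there in the fit of all 4 groups (adjusted p = 0.117) and Atf3 under limma voom (0.0892). In Smyd3-ASO over P133 livers limma voom lost Fos, Jun and Ier2 (adjusted p = 0.0529, 0.061 and 0.14). The fit of all 4 groups lost Fos there (0.0728) and called Ier3 (0.0216).

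Between the oligonucleotides, Ier2 was lower in Smyd3-ASO livers and no other member passed the test. One of the 9 tested genes fell and none rose, where 13.3% of all genes rose and 12.9% fell. Ier2 had 14.0, 19.5, 16.5, 19.6, 21.2 and 5.18 CPM in Smyd3-ASO mice 1 to 6, and 53.2, 41.0, 23.0, 29.9, 26.7 and 31.3 CPM in control-ASO mice 1 to 6. All 6 Smyd3-ASO mice lay below all 6 control-ASO mice. The log2 change was -1.10 (SE 0.29, adjusted p = 0.0133), which is 2.14-fold lower. It passed under all 22 alternatives tried, between -1.19 and -0.75, with adjusted p between 0.00172 and 0.0385.

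**Figure D3:**
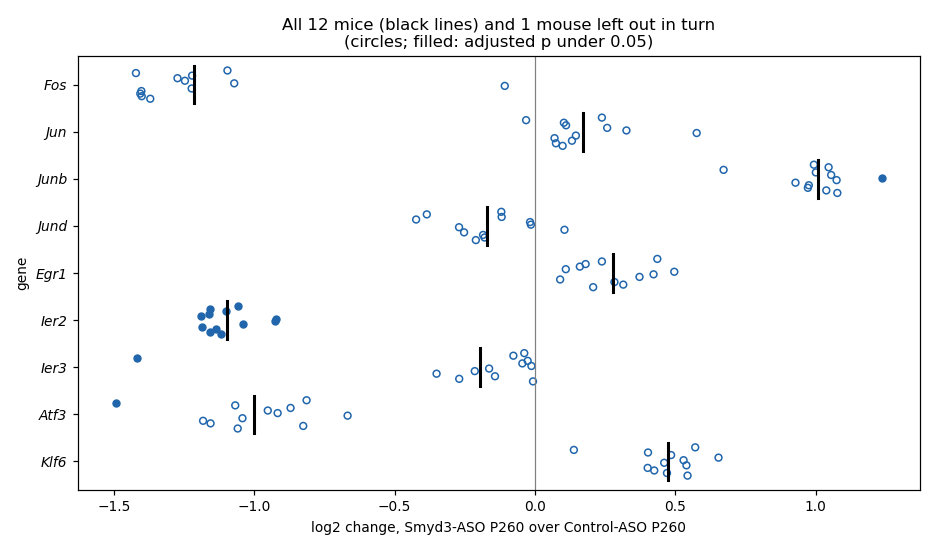
Log2 change of each tested gene in Smyd3-ASO over control-ASO livers with all 12 mice (black lines) and with each mouse left out in turn (circles, filled where the adjusted p was under 0.05). Ier2 stays between -1.19 and -0.92, whereas Fos lies at -1.22 with all mice and at -0.11 without control-ASO mouse 1.

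Junb was the member with the largest positive value between the oligonucleotides. It averaged 73.4 ± 45.0 CPM in Smyd3-ASO livers and 36.3 ± 7.62 CPM in control-ASO livers (SD, n = 6 each). In 5 of the 6 Smyd3-ASO mice Junb lay above all control-ASO mice, and in mouse 6 it lay below all of them. The log2 change was 1.01 (SE 0.42, adjusted p = 0.0925), and 1.24 (adjusted p = 0.00211) without Smyd3-ASO mouse 6. DESeq2 called it (1.02, adjusted p = 0.0384), as did a fit of all 4 groups at once (1.02, adjusted p = 0.0443). Prdx2, which overlaps it, rose in the same comparison by 0.72 (SE 0.12, adjusted p = 8.970e-04), and its part in the Junb value was not tested.

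Fos averaged 6.46 ± 2.94 CPM in Smyd3-ASO livers and 15.0 ± 20.2 CPM in control-ASO livers (SD, n = 6 each), a log2 change of -1.22 (SE 0.67, adjusted p = 0.197). The groups overlapped. Control-ASO mouse 1 set most of this value, since the change was -0.11 (adjusted p = 0.862) without it. For Fosb the Smyd3-ASO to control-ASO ratio of reads was 0.092 (counting interval 0.0519 to 0.154), and 0.419 (0.208 to 0.835) without that mouse. Ier3 gave -0.20 (SE 0.64, adjusted p = 0.842) with all mice. Without Smyd3-ASO mouse 3 it gave -1.42 (adjusted p = 0.00545), past the threshold. Atf3 gave -1.0 (SE 0.52, adjusted p = 0.167), and -1.49 (adjusted p = 0.0472) without Smyd3-ASO mouse 2.

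The other 4 members gave no call between the oligonucleotides. Egr1 averaged 210.1 ± 118.4 CPM in Smyd3-ASO and 172.7 ± 73.3 CPM in control-ASO livers (log2 0.28, SE 0.49, adjusted p = 0.70). Jun averaged 49.0 ± 22.02 CPM in Smyd3-ASO and 43.3 ± 26.3 CPM in control-ASO livers (0.17, SE 0.37, adjusted p = 0.753), and its sign turned (-0.03) without Smyd3-ASO mouse 2. Klf6 averaged 34.3 ± 20.2 CPM in Smyd3-ASO and 24.6 ± 4.93 CPM in control-ASO livers (0.47, SE 0.33, adjusted p = 0.31). Jund averaged 12.0 ± 7.36 CPM in Smyd3-ASO and 13.5 ± 5.98 CPM in control-ASO livers (-0.17, SE 0.39, adjusted p = 0.77), and turned to 0.10 without control-ASO mouse 2.

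Within the groups, a few mice were high or low in many of the members. Control-ASO mouse 1 was the highest of its group for 7 of the 10 genes (Fos, Fosb, Jun, Junb, Egr1, Ier2 and Atf3), and control-ASO mouse 3 the lowest for 7. Smyd3-ASO mouse 6 was the lowest of its group for 8 genes. It was sequenced as 1 library, against 2 or 3 for the other Smyd3-ASO mice, and had the lowest total of its group. Smyd3-ASO mouse 2 was the highest for 5 genes and mouse 3 for Junb and Ier3. Both control-ASO mouse 1 and Smyd3-ASO mouse 6 were left out as an alternative chosen after these values were seen. Because they were picked as a high control-ASO and a low Smyd3-ASO mouse, that choice raises the Smyd3-ASO over control-ASO changes by construction, and calls gained from it are not read as results. Ier2 still fell, by 0.75 (adjusted p = 0.00707).

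**Figure D4:**
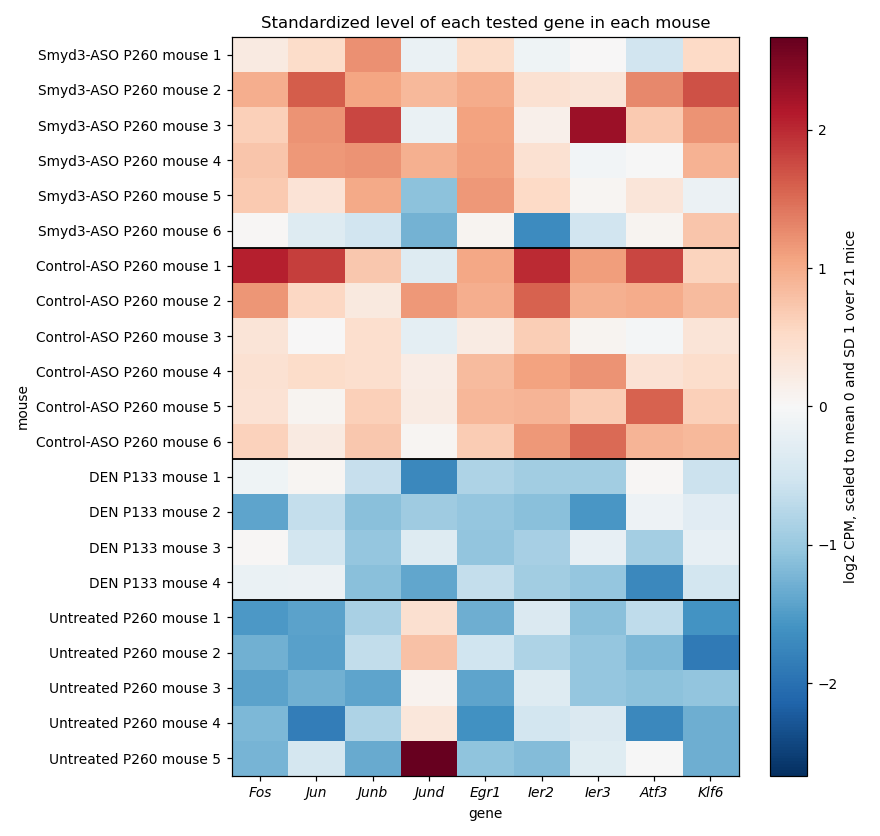
Log2 CPM of the 9 tested genes in each mouse, scaled per gene to mean 0 and SD 1 over 21 mice, with red for high and blue for low. The mean over the genes is 1.21 in control-ASO mouse 1 and -0.37 in Smyd3-ASO mouse 6, and it lies between -1.01 and -0.47 in every P133 and untreated mouse.

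Markers of other cell types moved with some of these values, and their part in the results was not tested. Over untreated livers, where most members rose, 3 of 4 tested bile duct markers (Sox9, Spp1 and Tspan8) rose in both ASO groups. Over all genes 24.4% rose there in Smyd3-ASO and 23.7% in control-ASO mice. Tspan8 averaged under 1 CPM in untreated livers and can have passed the filter on low counts through the ASO groups. The bile duct list summed to 43.2 to 72.8 CPM in Smyd3-ASO, 108.1 to 227.5 CPM in control-ASO, 22.6 to 50.5 CPM in P133 and 14.8 to 30.8 CPM in untreated mice. Of 6 hepatocyte markers, 5 fell in Smyd3-ASO, 3 in control-ASO and 4 in P133 over untreated livers, and none rose. Over all genes 23.2%, 22.2% and 16.6% fell in these comparisons. The summed level of 6 neutrophil markers was 102.3 CPM in Smyd3-ASO mouse 3, the mouse with the highest Ier3 and Junb, and 9.39 to 28.2 CPM in the other Smyd3-ASO mice. It ran from 4.54 to 21.01 CPM in control-ASO, 2.53 to 6.21 CPM in P133 and 3.12 to 34.6 CPM in untreated mice, the highest of these being mouse 5. Ly6g was at 0 in the P133 group, and Ly6g and Mpo averaged under 1 CPM in every group. One of the 4 tested neutrophil markers (Csf3r) rose in Smyd3-ASO over control-ASO mice and none fell, where 13.3% of all genes rose. The 7 macrophage and Kupffer cell markers summed to 183.8 to 369.2 CPM in Smyd3-ASO, 128.9 to 301.8 CPM in control-ASO, 240.8 to 370.4 CPM in P133 and 174.4 to 305.3 CPM in untreated mice. Over untreated livers 3 of the 7 rose (Adgre1, Cd5l and Marco) and 3 fell (Clec4f, Csf1r and Vsig4) in Smyd3-ASO mice. In control-ASO 0 rose and 3 fell, and in P133 3 rose and 1 fell. The 7 stellate cell and fibroblast markers summed to 135 to 227.4 CPM in Smyd3-ASO, 165.5 to 234.4 CPM in control-ASO, 160 to 197.6 CPM in P133 and 164.6 to 237.2 CPM in untreated mice. Between the oligonucleotides 4 of 6 hepatocyte markers (Cps1, Alb, Apoa1 and Ttr) fell and none rose, where 12.9% of all genes fell and 13.3% rose.

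The heat shock genes, which respond to protein damage and to handling of tissue, were also followed. In P133 over untreated livers 9 of 10 heat shock genes rose, among them Hspa1a (log2 3.36, SE 0.49) and Hspb1 (3.51, SE 0.54), while 3 of the 9 immediate early genes rose. In control-ASO over untreated livers 3 of 10 rose (Hspb1, Hsp90aa1 and Hsph1), and in Smyd3-ASO over untreated livers 5 of 10. Over all genes, 15.1% rose in P133, 23.7% in control-ASO and 24.4% in Smyd3-ASO over untreated livers. Over P133 livers 5 heat shock genes fell and 1 rose in Smyd3-ASO, where 11.7% of all genes fell and 13.1% rose. In control-ASO mice 1 fell and 0 rose, where 12.6% of all genes fell and 14.4% rose. A sum of the heat shock levels says little on Hspa1a and Hspa1b. They averaged 1.09 and 5.78 CPM in Smyd3-ASO livers, beside 944.1 CPM for Hsp90aa1. Within the ASO groups the summed heat shock level followed the members in some mice and not in others. It was highest in Smyd3-ASO mouse 3 (3401 CPM), which had the highest Junb and Ier3 of its group, and lowest in Smyd3-ASO mouse 6 (1875 CPM), which was lowest for 8 members. Control-ASO mouse 1, the highest of its group for 7 members, had 2560 CPM, against 1134 to 1695 CPM in the other control-ASO mice. The lowest, 1134 CPM, was control-ASO mouse 6, the highest for Ier3 and Klf6, whereas control-ASO mouse 3 was the lowest for 7 members. Smyd3-ASO mouse 2, the highest for 5 members, was not the highest in heat shock level. Between the oligonucleotides Hspe1, Hspd1, Hsp90aa1 and Hspa8 rose and Hspa1b fell. Of 14 clock genes, which follow the hour of the day, 3 rose and 3 fell in P133 over untreated livers. In Smyd3-ASO 1 rose and 5 fell, and in control-ASO 2 rose and 1 fell over untreated livers. Over all genes, 16.6% fell in P133, 23.2% in Smyd3-ASO and 22.2% in control-ASO, beside the rising shares given above. Dbp (-4.55, SE 0.87) and Nr1d1 (-4.35, SE 0.35) fell and Arntl (4.49, SE 0.50) and Cry1 (2.79, SE 0.20) rose in P133 over untreated livers. Over P133 livers, Nr1d1 rose by 3.95 (SE 0.57) in control-ASO and by 3.02 (SE 0.37) in Smyd3-ASO livers. Between the oligonucleotides 3 of 14 clock genes (Hlf, Per2 and Per3) fell and none rose, where 12.9% of all genes fell and 13.3% rose. The part of handling and of the hour of harvest in the immediate early genes was not tested.

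Among 34 further immediate early genes, 31 were tested. In control-ASO over untreated livers 15 rose, including Zfp36l1 (log2 1.41, SE 0.15) and Zfp36l2 (1.28, SE 0.15), which encode proteins that destabilise mRNA, Btg1 (1.14, SE 0.16), a growth arrest gene, and Ier5 (1.95, SE 0.27). There 4 fell, namely Cebpd (-1.20), Cebpb (-1.46), Klf2 (-1.0) and Gadd45g (-2.78). In Smyd3-ASO over untreated livers 17 rose, Nr4a1, a nuclear receptor of the fast response, by 2.77 (SE 0.49), and 2 fell (Sgk1 and Klf2). Nr4a1 averaged 0.539 CPM in untreated livers. Nr4a2 and Egr2, like Nr4a1 in both rising counts, also averaged under 1 CPM there. So did Ier5l and Gadd45b, in the control-ASO count, and Tnfaip3, in the Smyd3-ASO count. These genes can have passed the filter on low counts through the ASO groups, so the counts are not independent of that filter. In P133 over untreated livers 6 rose and 3 fell (Rhob, Sgk1 and Klf10). Over all genes, 23.7% rose and 22.2% fell in control-ASO over untreated livers. The shares were 24.4% and 23.2% in Smyd3-ASO and 15.1% and 16.6% in P133. Over P133 livers 13.1% of all genes rose and 11.7% fell in Smyd3-ASO, and 14.4% and 12.6% in control-ASO mice. Of the 31 tested here, 8 rose and 2 fell in Smyd3-ASO and 7 rose and 3 fell in control-ASO mice. Egr2, in both of these rising counts, averaged under 1 CPM in P133 livers too. Btg2, an antiproliferative p53 target, was among those that rose, by 2.35 (SE 0.51) in Smyd3-ASO and 2.39 (SE 0.44) in control-ASO mice. Between the oligonucleotides, where 13.3% of all genes rose and 12.9% fell, only Cebpb and Gadd45g passed, both higher in Smyd3-ASO livers. Cebpb, a leucine zipper factor of the acute-phase response, averaged 173.7 ± 78.4 CPM in Smyd3-ASO and 39.4 ± 21.6 CPM in control-ASO livers (2.13, SE 0.36, adjusted p = 0.00123), with no overlap.

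Upstream of these genes stand SRF, CREB and the kinases of the Ras-MAPK pathway. Of 24 upstream regulators, 6 rose and 4 fell in control-ASO over untreated livers, 6 rose and 5 fell in Smyd3-ASO, and 4 rose and 3 fell in P133. These counts stand beside 23.7% rising and 22.2% falling over all genes in control-ASO, 24.4% and 23.2% in Smyd3-ASO, and 15.1% and 16.6% in P133 livers, so they are near the background. Hras fell in all 3 comparisons, by 2.01 (SE 0.16) in Smyd3-ASO, 1.85 (SE 0.15) in control-ASO and 1.57 (SE 0.16) in P133 livers on the log2 scale. Creb1 rose by 1.07 (SE 0.17) in Smyd3-ASO, 1.01 (SE 0.15) in control-ASO and 0.88 (SE 0.17) in P133 livers. Srf fell by 1.49 (SE 0.34) in Smyd3-ASO and by 0.99 (SE 0.22) in control-ASO over untreated livers. Between the oligonucleotides Nras rose by 0.80 (SE 0.16) and none of the 24 fell.

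Further leucine zipper proteins pair with Fos and Jun or act on them. Of 15 AP-1 partners 12 were tested. Of these, 1 rose and 3 fell in control-ASO over untreated livers. In Smyd3-ASO 3 rose and 4 fell, and in P133 3 rose and 3 fell. Over all genes, 23.7% rose and 22.2% fell in control-ASO, 24.4% and 23.2% in Smyd3-ASO, and 15.1% and 16.6% in P133. Fosl2, the Fos relative Fra-2, rose in all 3, by 1.85 (SE 0.35) in Smyd3-ASO, 1.05 (SE 0.27) in control-ASO and 1.02 (SE 0.22) in P133 livers. Men1, the gene of menin, fell by 1.25 (SE 0.21) in Smyd3-ASO and by 0.75 (SE 0.15) in control-ASO livers. Over P133 livers 4 of the 12 fell and none rose in Smyd3-ASO, and 3 fell and 1 rose in control-ASO mice. There 11.7% of all genes fell and 13.1% rose in Smyd3-ASO, and 12.6% and 14.4% in control-ASO mice. Between the oligonucleotides Maff, a small Maf protein, fell by 1.09 (SE 0.29, adjusted p = 0.0143). Atf2 (-0.54) and Atf7 (-0.63) also fell while Mafg (0.61) rose, where 12.9% of all genes fell and 13.3% rose.

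Genes known as AP-1 or Egr1 targets numbered 14, of which 10 were tested. Over untreated livers 7 rose in Smyd3-ASO and 6 in control-ASO mice with none falling, where 24.4% and 23.7% of all genes rose, while at P133 none rose and 2 fell (Vim and Spp1). Plaur, Mmp13 and Hbegf are in both rising counts and Mmp9 is in that of Smyd3-ASO. These genes averaged under 1 CPM in untreated and in P133 livers. They can have passed the filter on low counts through the ASO groups, so the counts are not independent of that filter. Mmp13, a collagenase, rose by 3.52 (SE 0.84) in Smyd3-ASO and 4.36 (SE 0.84) in control-ASO livers. It averaged 0.72 CPM in Smyd3-ASO, 1.31 in control-ASO and 0.060 in untreated livers, so these changes rest on few reads. Ccnd1, the gene of cyclin D1, rose by 1.53 (SE 0.34) in Smyd3-ASO livers. In P133 over untreated livers 15.1% of all genes rose and 16.6% fell. Over P133 livers 4 of the 10 rose in Smyd3-ASO and 5 in control-ASO mice with none falling, where 13.1% and 14.4% of all genes rose. Hbegf is in both of these counts and Mmp13 in that of control-ASO, with the same limit. Between the oligonucleotides Plaur (1.54), Cd44 (0.78) and Mmp9 rose. Plaur was low, at a mean of 1.16 CPM in Smyd3-ASO and 0.405 CPM in control-ASO livers. Spp1 (-0.80, SE 0.27, adjusted p = 0.0437) and Nab2 fell. Nab2, a corepressor that Egr1 induces and that then restrains Egr1, averaged 5.01 ± 1.77 CPM in Smyd3-ASO and 11.7 ± 4.49 CPM in control-ASO livers (-1.23, SE 0.29, adjusted p = 0.00722). Spp1 also counts among the bile duct markers, whose summed level was 43.2 to 72.8 CPM in Smyd3-ASO and 108.1 to 227.5 CPM in control-ASO mice.

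Feedback genes of the Ras-MAPK cascade, which act on the kinases that induce the members, rose in 6 of 8 tested cases in control-ASO and 5 of 8 in Smyd3-ASO over untreated livers, with none falling, and Dusp6 alone rose at P133. Over all genes, 23.7% rose in control-ASO, 24.4% in Smyd3-ASO and 15.1% in P133 over untreated livers. Over P133 livers 2 feedback genes rose in Smyd3-ASO and 6 in control-ASO mice with none falling, where 13.1% and 14.4% of all genes rose. Dusp5 is in both ASO counts over untreated livers, and Dusp5 and Spry4 are in the control-ASO count over P133 livers. Dusp5 averaged under 1 CPM in untreated and P133 livers, and Spry4 in P133 livers. Both can have passed the filter on low counts through the ASO groups. Between the oligonucleotides 2 feedback genes fell and none rose, where 12.9% of all genes fell and 13.3% rose. Dusp5, an ERK phosphatase, averaged 1.29 ± 0.67 CPM in Smyd3-ASO and 8.80 ± 4.84 CPM in control-ASO livers (-2.75, SE 0.42, adjusted p = 5.274e-04), and Spry2 gave -1.83 (SE 0.46, adjusted p = 0.0101). Of 11 liver transcription factors, 7 fell and 1 rose in Smyd3-ASO over untreated livers. In control-ASO 4 fell and 2 rose, and in P133 2 fell and 2 rose. Over all genes 23.2%, 22.2% and 16.6% fell in these comparisons. Hnf4a, which maintains hepatocyte identity, fell by 1.31 (SE 0.18) in Smyd3-ASO and 1.01 (SE 0.12) in control-ASO livers.

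The genes most like the members were found by correlation of log2 CPM with the members' mean standardized level over the 21 mice, among 8779 tested genes whose log2 CPM averaged 2 or more. The 5 highest were Btg2 (Pearson r 0.94), Il1rn (0.92), Kbtbd2 (0.92), Atf5 (0.92) and Arf4 (0.91). All 5 averaged higher in both ASO groups than in P133 and untreated mice. The members' mean has this pattern too, so it follows from how the genes were ranked and is no separate result. Il1rn, the interleukin-1 receptor antagonist, averaged 51.7, 75.4, 1.92 and 2.05 CPM in Smyd3-ASO, control-ASO, P133 and untreated livers. After the group means were taken off, the 5 highest were Ptpn11 (0.84), Tma7 (0.84), Usp5 (0.82), Rap1b (0.80) and Ptprm (0.80). Ptpn11 encodes the phosphatase SHP2 of the Ras-MAPK pathway. These correlations describe 21 mice that share groups, depth and scaling.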

How the data were processed

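Liver RNA of 21 mice was sequenced as 35 libraries, and the labels' biological replicates were taken as mice. The authors deposited raw counts per Ensembl gene, with the libraries of an ASO mouse already added into 1 column, and a table of normalized values (a score per gene) that matched the raw count divided by a size factor per column within 0.51. HISAT2 2.1.0, mm10 and DESeq stand in the submitters' processing notes. The counting program, its annotation and its strand setting are not given in the sources used here. Symbols came from GENCODE M21.

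Genes were filtered with filterByExpr over the 4 groups (15297 kept), scaled with TMM and tested with edgeR 4.0.16 (R 4.3.3, robust quasi-likelihood, two-sided) on the 2 groups of each of 6 comparisons, with Benjamini-Hochberg adjustment over all genes tested and a threshold of 0.05. The method was tested on simulated data. Totals of 4556484 to 20258619 counts per mouse set the precision of low genes, and intervals cover counting error only. The alternatives were DESeq2 1.42.0, limma 3.58.1 (voom, and on the deposited normalized values), RLE scaling, library totals, no filter, all groups in 1 fit, thinning, a replicate block and leaving out each mouse. The members and lists were chosen with earlier results of these data known. Named genes of other lists are up to 4 with the smallest adjusted p in a comparison and any that moved against the rest of their list. Likeness was ranked over named genes whose log2 CPM averaged 2 or more. Some list genes given in a second comparison, and those named only as called, fall outside that rule and were chosen after their values were seen. One gene of the upstream list is counted there but not reported here.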

Additional observations from a re-analysis of the deposited data

Results flagged for a closer look

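Of 40 groups of mice (10 genes in 4 groups), 10 held a mouse whose gap to the nearest other mouse took up more of the group's range than Dixon's 95% limit. That limit flags about 1 group in 20 for normally distributed values. The values here were CPM without a log, and some were near 0, so the number flagged is not read as an excess over that rate. Control-ASO mouse 1 stood apart for Fos at 55.4 CPM (next mouse 14.8), for Fosb at 6.82 CPM (next 0.778) and for Jun at 96.1 CPM (next 39.3). Control-ASO mouse 2 stood apart for Jund at 25.2 CPM (next 13.1). Smyd3-ASO mouse 3 stood apart for Ier3 at 25.4 CPM (next 3.92). P133 mouse 1 stood apart for Junb at 9.26 CPM (next 5.54), and for Fosb at 0.211 CPM, a single read where the other 3 mice had 0. Untreated mouse 5 stood apart for Jund at 70.6 CPM (next 19.3), and untreated mouse 2 for Egr1 at 11.6 CPM (next 3.75). Untreated mouse 3 stood apart for Fosb at 0.156 CPM, again a single read. A single read where all other mice have 0 is always flagged by this rule, so the Fosb flags in P133 and untreated mice were fixed in advance.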

How the results depend on the processing

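The 54 member results were recomputed under 1095 alternatives, of which 1009 kept direction and side of the threshold, 43 lost the call, 29 gained one and 14 changed sign; none of the 33 called results changed sign. In Smyd3-ASO over control-ASO mice, DESeq2 and the fit of all 4 groups called 2 members. Leaving out both mice that stand apart called 3 (Jun, Junb and Ier2), a choice of mice that raises these changes by construction. Fos and Ier3 were not called under that choice and changed sign, to log2 0.038 (adjusted p = 0.948) and 0.0191 (adjusted p = 0.987). Leaving out 1 mouse in this comparison called 1 to 2 members, with Jun between -0.0318 and 0.5758 and Jund between -0.4235 and 0.1049. In P133 over untreated mice the fit of all 4 groups called 2, without Fos and Jun. Junb turned there to -0.0035 with no filter, -0.0692 after thinning, -0.072 with a replicate block, and lay between -0.2108 and 0.2116 with 1 mouse left out. With library totals Ier2 turned to 0.27 and Ier3 to 0.40, and Ier3 lay between -0.6564 and 0.0715 with 1 mouse left out. In Smyd3-ASO over P133 mice limma voom called 3, and leaving out 1 mouse called 3 to 6. The leave-one-out ranges were 8 to 8 (control-ASO over untreated), 6 to 8 (Smyd3-ASO over untreated), 3 to 4 (P133 over untreated) and 6 to 9 (control-ASO over P133). The cause of these changes was not tested. Over all genes, library totals called 10708 in control-ASO over untreated (7018 by TMM) and 7289 in P133 over untreated mice (4839 by TMM). The replicate numbers do not pair the mice, since correlations of same-numbered mice ran from -0.12 to 0.112. A replicate block called 1, 8, 8, 4, 8 and 8 members in the 6 comparisons (Smyd3-ASO over control-ASO, control-ASO, Smyd3-ASO and P133 over untreated, then control-ASO and Smyd3-ASO over P133), and 2543 of all genes in control-ASO over P133 mice (4131 without it). Without P133 mouse 2, 2519 genes passed in Smyd3-ASO over P133 mice (3794 with it). Fos, Fosb and Atf3 rest on few reads in P133 and untreated mice, which limits the size of their changes.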

Other observations

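Markers of other cells in the same livers also differed between groups. Of 5 erythroid markers, Alas2 rose and 3 (Hba-a1, Hbb-bt and Hbb-bs) fell in Smyd3-ASO over control-ASO livers, with a summed level of 622.5 to 1612 CPM in Smyd3-ASO and 2029 to 5511 CPM in control-ASO mice. Of 6 sinusoidal endothelial markers, Oit3, Pecam1 and Stab2 fell and none rose in that comparison. Of 4 tested bile duct markers, Spp1 and Tspan8 fell and Epcam rose. Of 3 tested lymphocyte markers, Cd79b rose and none fell. Over all genes 13.3% rose and 12.9% fell in Smyd3-ASO over control-ASO livers. The part of these markers in the immediate early genes was not tested.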
